A study of Homo sapiens with 6 samples.

Results

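The precursors of the miR-30 family are described here, in HCT116 cells whose own DICER was removed and then put back in 1 of 2 forms. Members were taken by hairpin name, as the lines of the deposited table for hsa-mir-30a, hsa-mir-30b, hsa-mir-30c-1, hsa-mir-30d and hsa-mir-30e, so they are 5 of its 147 hairpins. HCT116 is a human colorectal carcinoma line. In the DICER-delHelicase group (3 samples), DICER-KO cells had received the plasmid pXG-DICER-delHelicase, which encodes DICER without its helicase domain. In the DICER-WT group (3 samples), the same DICER-KO cells had received pXG-DICER-WT, the full-length enzyme. Both groups therefore lack endogenous DICER and carry a transiently transfected DICER, harvested after 48 h. The labels do not say whether the knockout line is 1 clone, nor whether the samples of a group are separate cultures.

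The small RNA libraries of each group are represented by a single deposited value per hairpin, headed global variation and called the variation score here. Neither the labels nor the header give its formula or say how the 3 samples entered it. All scores were 0 or above, and the highest was 1.09. No value per sample was at hand, so no spread between samples, no test and no depth stands behind any difference below. The table holds no expression values, so neither the cell line nor the loss of DICER could be checked against marker genes.

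DICER cuts a precursor miRNA near its apical loop and releases a duplex of a 5′ arm strand (5p) and a 3′ arm strand (3p). The cut on the 3′ arm makes the 5′ end of the 3p miRNA, and a shifted 5′ end shifts the seed with which a miRNA recognises its targets. The helicase domain of DICER lies towards the loop end of a bound precursor. The miR-30 family is widely expressed in epithelia, where it is known to restrain the epithelial-to-mesenchymal transition, in part through SNAI1. The mir-30a hairpin is also the backbone of many short hairpin RNA vectors.

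All 5 members are listed in the table for their 3p strand. The hairpins of 3 of them, those whose 3p strand was found in RefSeq, are shown to mark where the 3p miRNA begins relative to the loop. Each is the deposited sequence, with the RefSeq mature 3p strand (GRCh38.p14) in capitals. The first capital is the annotated 5′ end that DICER makes. The RefSeq hairpin lies inside each deposited sequence with 10 further bases on either side, as in 127 of 127 hairpins that could be matched by name. The coordinates below (GRCh38) include those flanks. The hairpin hsa-mir-30a lies at chr6:71403541-71403631 on the minus strand, in introns of the long non-coding RNA genes LINC00472 and AL136164.2. The hairpins hsa-mir-30c-1, at chr1:40757274-40757382, and hsa-mir-30e, at chr1:40754345-40754456, lie on the plus strand in introns of NFYC, which encodes a subunit of the transcription factor NF-Y.
hsa-mir-30a: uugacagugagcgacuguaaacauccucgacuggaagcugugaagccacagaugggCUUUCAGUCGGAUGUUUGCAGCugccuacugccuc
hsa-mir-30c-1: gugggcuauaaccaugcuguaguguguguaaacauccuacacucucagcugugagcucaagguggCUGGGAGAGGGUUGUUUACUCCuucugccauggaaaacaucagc
hsa-mir-30e: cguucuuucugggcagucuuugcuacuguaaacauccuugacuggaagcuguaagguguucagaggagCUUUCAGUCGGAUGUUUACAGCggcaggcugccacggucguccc

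The mature strands below are from RefSeq, with the seed (bases 2 to 8) in capitals, and show that the family is held together by its 5p seed but not by its 3p seed.
hsa-miR-30a-5p: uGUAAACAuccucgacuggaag
hsa-miR-30e-5p: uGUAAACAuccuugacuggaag
hsa-miR-30c-5p: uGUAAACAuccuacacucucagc
hsa-miR-30a-3p: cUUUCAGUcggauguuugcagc
hsa-miR-30e-3p: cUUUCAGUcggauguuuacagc
hsa-miR-30c-1-3p: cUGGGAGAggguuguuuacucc

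The letters of the 5p seed occur before the midpoint of all 5 members and of no other hairpin among the 147. Those of the 3p seed of miR-30a and miR-30e occur after the midpoint of hsa-mir-30a, hsa-mir-30d and hsa-mir-30e and of no other hairpin. The 3p seed letters of miR-30c-1 occur after the midpoint of hsa-mir-30c-1 and of hsa-let-7a-1, and not of hsa-mir-30b. The scored 3p strands therefore fall into a group of 3 hairpins with a common seed (mir-30a, mir-30d and mir-30e) and 2 hairpins outside it (mir-30b and mir-30c-1).

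The first question was whether removal of the helicase domain went with higher or lower variation scores of these precursors. All 5 hairpins had a higher score with DICER-delHelicase than with DICER-WT, where 72.1% of all hairpins did. All 5 were higher by at least 0.2, against 20.4% of all hairpins (30 of 147). The delHelicase score was at least 1.5 times the WT score in all 5, which held for 61.7% of the 141 hairpins with a WT score above 0. The median of the 5 was 0.708 with DICER-delHelicase and 0.221 with DICER-WT, against 0.146 and 0.0804 over all hairpins. The median difference (delHelicase minus WT) was 0.326 for the family and 0.0261 over all hairpins.

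**Figure D1:**
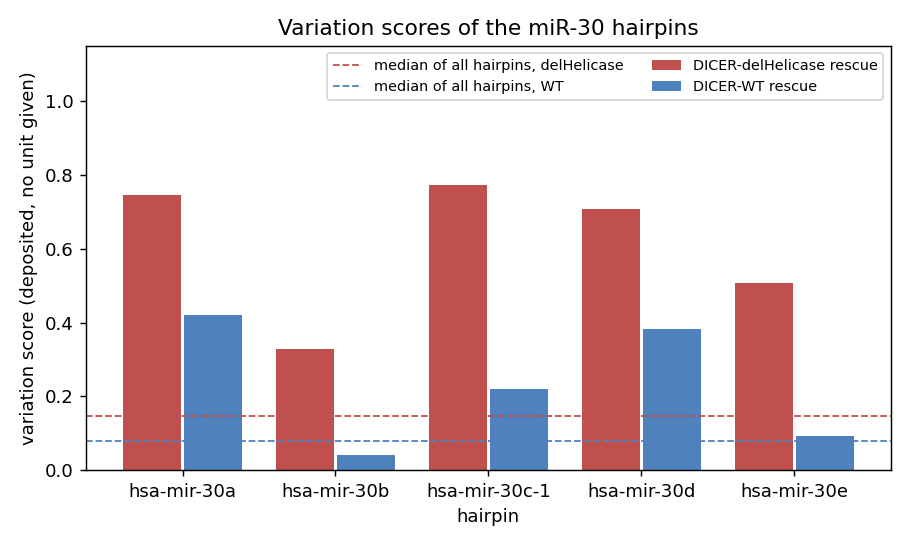
Deposited variation score (no unit given) of each miR-30 hairpin with DICER-delHelicase (left bar) and DICER-WT (right bar). Dashed lines are the medians of all 147 hairpins, 0.146 with DICER-delHelicase and 0.0804 with DICER-WT. Each bar is 1 deposited value without error, and every delHelicase bar is above the WT bar of its hairpin.

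In the group with a common 3p seed, hsa-mir-30a scored 0.746 with DICER-delHelicase and 0.420 with DICER-WT, a difference of 0.326. The hairpin hsa-mir-30d scored 0.708 with DICER-delHelicase and 0.383 with DICER-WT, a difference of 0.325. These hairpins had the highest WT scores of the family, above 93.2% and 90.5% of all hairpins, and they lay close to each other with both constructs. The third of this group, hsa-mir-30e, scored 0.508 with DICER-delHelicase and 0.0917 with DICER-WT, a difference of 0.416. Its WT score was nearer to the median of all hairpins and stood above 54.4% of them, while its delHelicase score stood above 82.3%.

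Outside that group, hsa-mir-30c-1 had the highest delHelicase score of the family, 0.773, against 0.221 with DICER-WT. Its difference of 0.552 was the largest of the 5 and the sixth largest in the table. The hairpin hsa-mir-30b had the lowest score of the family with either construct, 0.327 with DICER-delHelicase and 0.0410 with DICER-WT. Its WT score lay below the median of all hairpins, the only one of the 5 to do so, and its difference of 0.286 was the smallest in the family. It still exceeded the differences of 83.0% of all hairpins.

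How strongly a member stands out depends on the scale. As a ratio of the delHelicase score to the WT score, mir-30b led the family with 7.99, followed by mir-30e with 5.54 and mir-30c-1 with 3.50. The ratios of mir-30d and mir-30a were 1.85 and 1.78. Both were below 1.93, the median ratio over hairpins with a WT score above 0, although their differences exceeded those of 85.0% and 85.7% of all hairpins. Thus the members with the highest WT scores had the smallest ratios, and the order by ratio is the reverse of the order of the WT scores. As the WT score is the divisor of the ratio, this reverse order is in part built in.

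**Figure D2:**
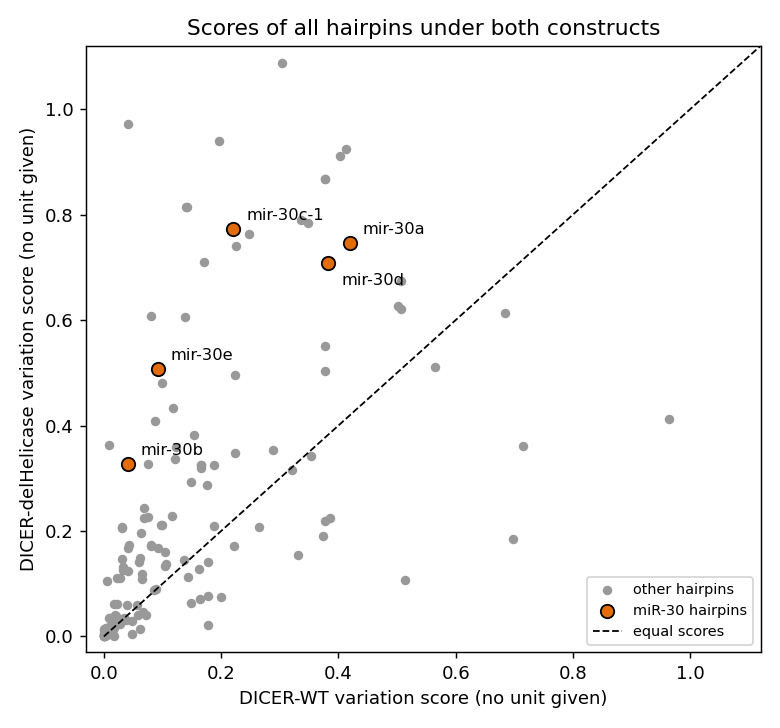
Variation score with DICER-delHelicase (vertical axis) against that with DICER-WT (horizontal axis), no unit given, 1 point per hairpin (147). The miR-30 hairpins (orange) all lie above the dashed line of equal scores, with mir-30a and mir-30d side by side and mir-30b nearest the origin.

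The members were spread more widely in ratio under DICER-WT than under DICER-delHelicase. The highest delHelicase score was 2.36 times the lowest (0.773 and 0.327), whereas the highest WT score was 10.3 times the lowest (0.420 and 0.0410). As differences the spreads were closer, 0.446 with DICER-delHelicase and 0.379 with DICER-WT. With DICER-delHelicase the order from high to low was mir-30c-1, mir-30a, mir-30d, mir-30e and mir-30b. With DICER-WT it was mir-30a, mir-30d, mir-30c-1, mir-30e and mir-30b, so that mir-30c-1 moved past mir-30a and mir-30d and the other 4 kept their order. Without an error on the scores, neighbours in these orders cannot be said to differ, in particular mir-30c-1, mir-30a and mir-30d with DICER-delHelicase, which span 0.708 to 0.773.

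Low WT scores leave little room for lower ones, so the family was also set beside the 80 other hairpins whose WT score lay within the range of its own. Of these, 58 were higher with DICER-delHelicase and 23 (28.75%) were higher by at least 0.2. Their median difference was 0.112, and 27 of them exceeded the lowest delHelicase score of the family.

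The let-7 and miR-98 hairpins and the miR-320 hairpins served as comparisons, since nearly all of their members also scored higher with DICER-delHelicase. The differences of the miR-30 hairpins ran from 0.286 to 0.552 with a median of 0.326. Those of the 7 let-7 and miR-98 hairpins ran from -0.0508 to 0.931 with a median of 0.167, and those of the 7 miR-320 hairpins from 0.0562 to 0.131 with a median of 0.112. Every miR-30 difference was thus above every miR-320 difference, while of the let-7 and miR-98 differences 6 of 7 were below the lowest of the miR-30 family and 1, that of let-7e (0.931), was above its highest. The miR-30 hairpins passed 0.2 in 5 of 5, let-7 and miR-98 in 3 of 7, and miR-320 in 0 of 7. These counts take copies of a miRNA separately: the 7 let-7 and miR-98 hairpins hold 6 listed miRNAs, and the 7 miR-320 hairpins hold 4. The 128 hairpins outside these 3 families had a median difference of 0.0116. No test of these contrasts was possible.

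**Figure D3:**
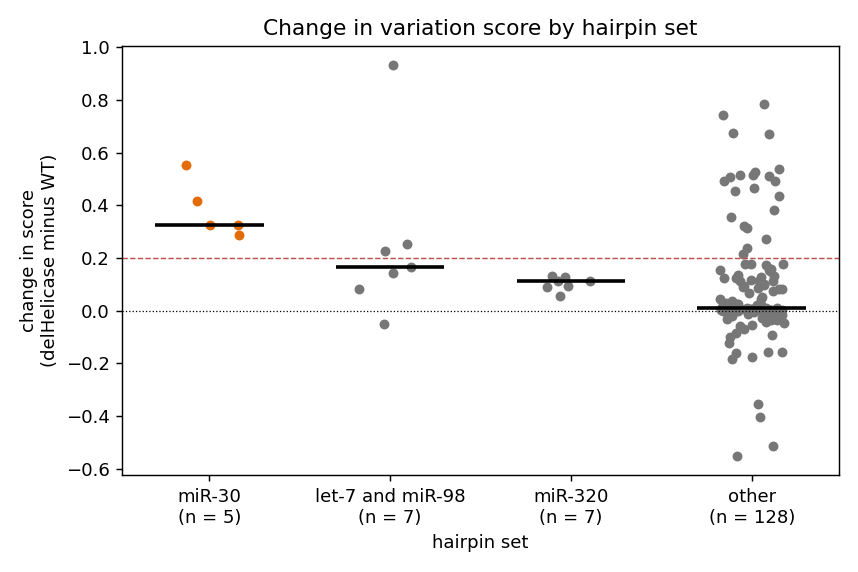
Difference in variation score (delHelicase minus WT, no unit given) for the miR-30, let-7 and miR-98, and miR-320 hairpins and the 128 others. Points are hairpins, with horizontal scatter for legibility, black bars are medians (0.326, 0.167, 0.112 and 0.0116), and the dashed line marks 0.2, above which all 5 miR-30 hairpins lie.

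The hairpins whose pair of scores was most like a member's came from unrelated miRNAs. Likeness was measured as the straight-line distance over the 2 scores, among the 142 hairpins outside the family. The nearest to mir-30c-1 was mir-126, an endothelial miRNA, with 0.763 for DICER-delHelicase and 0.248 for DICER-WT (distance 0.0289). The nearest to mir-30e was mir-576, with 0.480 and 0.0993 in the same order (distance 0.0287). The let-7f-2 hairpin was nearest to mir-30b, with 0.327 for DICER-delHelicase and 0.0755 for DICER-WT (distance 0.0345). A single hairpin, mir-1307, was nearest to both mir-30a and mir-30d, with 0.784 for DICER-delHelicase and 0.349 for DICER-WT (distances 0.0806 and 0.0831). Within the family, mir-30a and mir-30d were the closest pair (distance 0.0533), differing by 0.0384 with DICER-delHelicase and 0.0370 with DICER-WT. They were closer to each other than to any other hairpin, whereas mir-30b, mir-30c-1 and mir-30e each had a hairpin outside the family closer than any member.

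Closeness in sequence went with closeness in score for one pair of members and not for another. Over global alignments of the deposited hairpins, mir-30a and mir-30d were the most alike of the 10 pairs (73.9% identical aligned columns). The second most alike pair was mir-30b and mir-30c-1 (67.8%), which have the largest difference of all 10 pairs with DICER-delHelicase (0.446) and differed by 0.180 with DICER-WT. The hairpins mir-30a and mir-30e followed (66.4%), differing by 0.238 with DICER-delHelicase and 0.328 with DICER-WT, although their 3p strands share a seed. The pairs mir-30a with mir-30e and mir-30b with mir-30c-1 share identical runs of 18 nt, the longest among the 10 pairs. Whether reads could be told apart between members was not tested, since the reads and mapping settings were not used here.

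Genomic neighbours differed in their scores, with no error to set the differences against. The NFYC intron pair, mir-30e and mir-30c-1, lie 2837 bp apart on chromosome 1, and their scores were 0.508 and 0.773 with DICER-delHelicase against 0.0917 and 0.221 with DICER-WT. The hairpins mir-30d and mir-30b lie 4268 bp apart on chromosome 8 outside other annotated genes (GENCODE 29). They scored 0.708 and 0.327 with DICER-delHelicase against 0.383 and 0.0410 with DICER-WT, so mir-30d had the higher score of the pair with both constructs. The sixth miR-30 hairpin, mir-30c-2, lies 26519 bp from mir-30a on chromosome 6 and is not among the 147 analysed here.

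The table gives 2 further facts on each precursor, both tied by the header to the DICER-WT libraries. The main 5′ end of the 3p strand had an offset of 0 for all 5 members, as for 140 of the 147 hairpins, read here as nucleotides from a reference end whose definition is not given. The 2-nt class was Yes for mir-30a, mir-30c-1, mir-30d and mir-30e and No for mir-30b, beside 73 Yes and 74 No over all hairpins. The single member in class No was the one with the lowest score under either construct. Over all hairpins the classes had like medians, 0.146 with DICER-delHelicase in both, and 0.0807 (Yes) and 0.0752 (No) with DICER-WT. Their median differences per hairpin were 0.0115 (Yes) and 0.0549 (No), where the members of class Yes had 0.325 to 0.552 and mir-30b of class No had 0.286. With 1 member in class No, the family cannot show a difference by class.

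The header does not say what 2-nt means, so the class was set beside the predicted secondary structure of each hairpin (RNAfold, minimum free energy). For the 136 hairpins whose listed mature strand was found in RefSeq, the paired bases lying in a row just before the main 5′ end were counted, from that end towards the loop. Only the strand of the listed miRNA was read, so unpaired bases on the opposite strand alone did not end a run. In class Yes, 57 of 70 hairpins (81.4%) had exactly 2 such bases, and in class No 3 of 66 (4.55%), copies of a miRNA counted separately. With centroid structures, which average over the predicted ensemble, these were 55 of 70 (78.6%) and 7 of 66 (10.6%). In class Yes the main 5′ end thus mostly lay 2 predicted paired bases from an unpaired stretch towards the loop. How the class was assigned is not given. It may itself rest on a predicted structure and this end, so the agreement may be built in. A distance of 2 nt between the cut and an upstream loop or bulge is known in the field as the loop-counting rule.

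**Figure D4:**
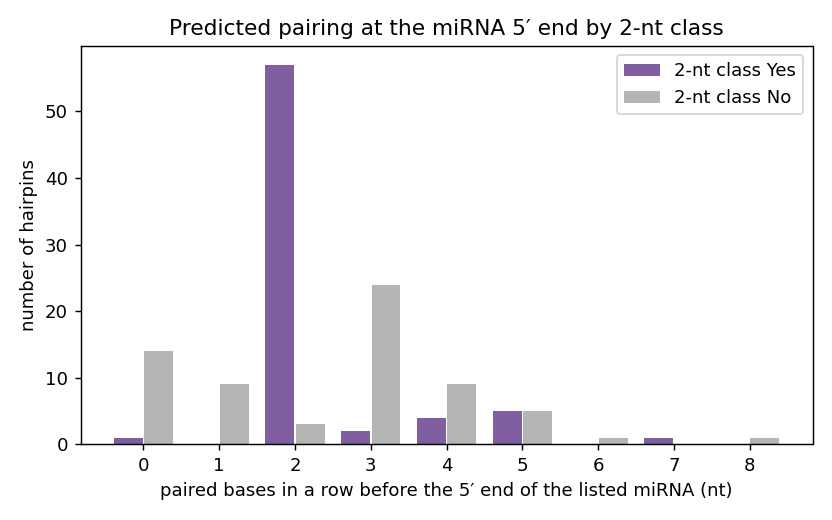
Number of hairpins (vertical axis) by the count of predicted paired bases in a row before the 5′ end of the listed miRNA (horizontal axis, nt), for 2-nt class Yes (left bars, 70 hairpins) and No (right bars, 66 hairpins). The Yes bar at 2 nt holds 57 hairpins and the No bar 3.

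The 3 members with a RefSeq 3p strand differed at this place. In mir-30a, 2 paired bases separate the 3p start from a bulge of 5 unpaired bases on the 3′ arm with none opposite. In mir-30e, 2 paired bases separate it from an internal loop with 1 unpaired base on each arm. In mir-30c-1, also of class Yes, the predicted run was 5 paired bases long and ended at a 3-nt apical loop. That run was counted on the 3′ arm alone. On the 5′ arm, bases 51 to 54 were predicted unpaired, a bulge 2 base pairs from the 3p start. The centroid structure of mir-30c-1 gave a run of 2 paired bases and a 13-nt loop, and that of mir-30a a run of 1. The 60 hairpins with a run of exactly 2 had a median difference of 0.00969 (delHelicase minus WT), against 0.326 and 0.416 for mir-30a and mir-30e. The 60 include these 2 members and repeated copies of a miRNA, such as those of mir-941 with 0.00524 each.

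**Figure D5:**
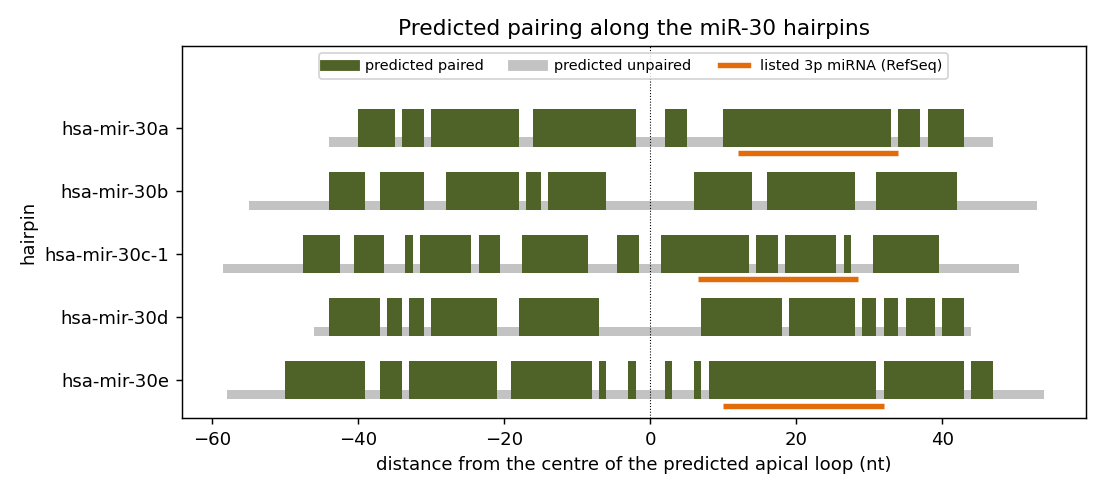
Predicted pairing along each deposited miR-30 hairpin, as distance in nucleotides from the centre of the predicted apical loop. Tall green bars are paired bases, low grey bars unpaired ones, and orange lines the listed 3p miRNA where RefSeq gave it; the open stretch at the centre is widest in mir-30d (14 nt) and mir-30b (12 nt).

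Loop size divided the family into mir-30c-1, mir-30a and mir-30e with small predicted apical loops (3, 4 and 4 nt) and mir-30b and mir-30d with large ones (12 and 14 nt). In mir-30e, however, the small loop is closed by a lone pair (bases 56 and 61). Beyond it lie unpaired bases 53 to 55 and 62 to 64, then another lone pair (bases 52 and 65). All hairpins together had a median of 7 nt (quartiles 4 and 9). The small-loop members had differences of 0.552, 0.326 and 0.416, and the large-loop members 0.286 and 0.325. Those of mir-30a and mir-30d, with 4 and 14 nt, were nearly equal. Across all 147 hairpins, differences were higher where the loop was smaller (Spearman's rho -0.334, and -0.303 with 1 value for each of 127 miRNAs). Loop size had the strongest rho of several features computed. The others were 0.223 (distance from loop to 3p start), 0.193 (stem pairs), -0.172 (unpaired share) and -0.0979 (folding energy). For length, paired run, GC content and the stretch between the strands they were 0.0691, -0.0573, -0.0102 and 0.00501. The hairpins are points from the same libraries, and copies of a miRNA are among them. The 40 hairpins with loops of at most 4 nt had a median difference of 0.126, and the 19 with loops of at least 12 nt one of -0.000234. In the large-loop set 7 of 19 hairpins were higher with DICER-delHelicase, mir-30b and mir-30d among them. With centroid structures rho was -0.173 and mir-30c-1 moved to a 13-nt loop, so the member with the largest difference then had a large loop.

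The other predicted features of the members lay within the range of the table. Hairpins had 31 to 39 stem pairs (31 for mir-30b and mir-30d, 32 for mir-30c-1, 34 for mir-30a and 39 for mir-30e), beside a median of 35 over all hairpins. Their GC content ran from 42.6% in mir-30b to 52.7% in mir-30a and mir-30e, with a median of 51.7% over all. Folding energies ran from -54.4 kcal/mol in mir-30e to -34.3 kcal/mol in mir-30c-1, the members with the second largest and the largest difference. Over all hairpins the median energy was -44.2 kcal/mol. From the end of the apical loop to the 3p start there were 10 nt in mir-30a, 8 nt in mir-30e and 5 nt in mir-30c-1, beside a median of 5 nt over 136 hairpins. The stretch between the annotated 5p and 3p strands was 19 nt in mir-30a, 20 nt in mir-30e and 16 nt in mir-30c-1, with a median of 16 nt over the 101 hairpins with both strands in RefSeq. All 3 mature 3p strands are 22 nt long.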

How the data were processed

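Small RNA libraries (3 DICER-delHelicase and 3 DICER-WT samples) were made from a fraction of 10 µg of total RNA cut from a 12% urea gel, per the labels' protocols. The submitters' processing notes name cutadapt, Bowtie2, bedtools and GRCh38 without order or settings. The authors deposited 1 variation score per hairpin and construct (294 lines, 147 hairpins, 127 miRNAs), with a whole-number score for the main 5′ end and a 2-nt class tied to DICER-WT per the file headers. The labels and header give neither formula, pooling nor depth, so no test was run.

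Computed here were differences and ratios of the scores, a limit of 0.2 on a difference, ranks, and structures with RNAfold 2.7.2 (default energies). Alignments used Biopython 1.88 (match 1, mismatch -1, gap opening -2, extension -0.5). Figures and tables used Python 3.11.15. RefSeq held the listed mature strand of 136 hairpins, 3 of them members. The structure measures were tested on simulated hairpins with internal loops open on both arms, so bulges on 1 arm were not covered. Named hairpins were the 5 members, the nearest hairpin to each, and the comparison families as sets. The members and lists were chosen with earlier results of these data known. Alternatives were other scales, limits, hairpin subsets and folding settings. The 2-nt class comparison, the loop size limits, the pairwise alignments and the seed search were added after the table was seen.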

Additional observations from a re-analysis of the deposited data

How the results depend on the processing

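Of the 58 alternative values, 38 were within 1.5 times the main value (for the structures of the members, identical). The log2 ratios are on another scale than the differences, so for them this comparison of sizes measures no robustness. Among the score results, only the median over all hairpins could have changed sign, and it stayed positive. On the log2 scale with a pseudocount of 0.01 the members' changes were 0.81 (mir-30a), 2.73 (mir-30b), 1.76 (mir-30c-1), 0.87 (mir-30d) and 2.35 (mir-30e), and with 0.05 they were 0.76, 2.05, 1.60, 0.81 and 1.98 in that order. The family median of 0.326 was 0.381 as a mean and 0.326 to 0.371 with each hairpin left out. The median over all hairpins, 0.0261, was 0.114 within the WT range of the family, 0.0115 in class Yes and 0.0549 in class No; the cause was not tested. Past a difference of 0.1 or a ratio of 1.5 the count over all hairpins was 55 or 87 in place of 30, as these limits pass more hairpins by construction. At 0.3 it was 24, with 4 members, mir-30b falling out. Without dangling-end energies the members' loop sizes, stem pairs and 3p start distances were identical, as were the class counts of runs of 2. Centroid structures gave mir-30c-1 a loop of 13 nt, 28 stem pairs and a 3p start 2 nt from the loop, and mir-30e 38 stem pairs. Hairpins with a run of 2 then numbered 55 in place of 57 in class Yes and 7 in place of 3 in class No, alternatives chosen after seeing the data.

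No paired analysis was possible because each construct has a single deposited score and replicates are not separated, and leaving out replicates was not run for the same reason. The unknown depth limits the reading of low scores, and of the ratios of mir-30b and mir-30e most, since they rest on WT scores of 0.0410 and 0.0917.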
